A study of Homo sapiens with 6 samples.

Results

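The genes described here are 10 genes that ERK activity induces in many cell types: the dual-specificity phosphatases DUSP4, DUSP5 and DUSP6, the Sprouty and Sprouty-related genes SPRY1, SPRY2, SPRY4 and SPRED2, the ETS transcription factors ETV4 and ETV5, and PHLDA1. They were chosen by name, with earlier results of these data known, and matched by Ensembl identifier. All 10 were found among the 60656 genes of the count table. RNA was measured by 3′ mRNA sequencing in parental ZR-75-1 cells, an oestrogen receptor-positive luminal breast cancer line. One group of 3 libraries came from cells given DMSO, the solvent of the drug. The other 3 came from cells given 500 nM abemaciclib, an inhibitor of CDK4 and CDK6. Both treatments lasted 4 days in RPMI medium with fetal bovine serum. Both groups are labelled as parental cells, and the RB1 knockout arm that the design names is not used here. The groups stand for 1 cell line, and the study describes its replicates as independent. Single genes are compared here to ask whether this set of ERK-induced genes differed between cells given the CDK4/6 inhibitor and control cells.

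ERK is the last kinase of the RAS–RAF–MEK cascade, through which growth factor receptors drive proliferation. Active ERK switches on its own brakes: the DUSP phosphatases remove the activating phosphates from ERK, and Sprouty and SPRED proteins act further up, on the activation of RAS and RAF. ETV4 and ETV5, of the PEA3 group of ETS factors, and PHLDA1 are further transcripts that follow ERK activity, so levels of these genes are often read as a measure of ERK output. In luminal breast cancer cells, the same cascade carries signals from the ERBB and FGFR receptors to the D-type cyclins, which bind the kinases that abemaciclib inhibits.

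PHLDA1 and SPRY2 are the pair of members whose libraries did not overlap between the groups, PHLDA1 lower and SPRY2 higher with abemaciclib. Among all genes with at least 1 count, 13.1% had every abemaciclib library below every DMSO library, and 11.7% had every one above. The promoters of this pair are shown with the ETS core CCGGAA in capitals. ETV4 and ETV5 belong to the ETS factors, and ERK phosphorylates some members of this class. Each promoter shown is the 250 bases before the first transcribed base of the gene (RefSeq, GRCh38.p14, minus strand, written 5′ to 3′ toward the gene), at chr12:76031777-76032026 for PHLDA1 and chr13:80341127-80341376 for SPRY2. In PHLDA1 the match reads as TTCCGG because it lies on the other strand.
PHLDA1: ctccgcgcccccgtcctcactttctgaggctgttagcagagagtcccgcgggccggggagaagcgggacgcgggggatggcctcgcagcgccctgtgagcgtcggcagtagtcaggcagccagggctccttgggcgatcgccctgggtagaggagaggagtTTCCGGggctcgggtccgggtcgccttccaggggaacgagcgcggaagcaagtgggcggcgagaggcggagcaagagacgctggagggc
SPRY2: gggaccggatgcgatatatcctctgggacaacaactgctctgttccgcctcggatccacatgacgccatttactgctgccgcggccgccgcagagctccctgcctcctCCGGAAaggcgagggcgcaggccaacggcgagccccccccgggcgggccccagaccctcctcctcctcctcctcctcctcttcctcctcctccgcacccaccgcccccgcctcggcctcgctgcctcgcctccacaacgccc
The match lay 83 bases before the start in PHLDA1 and 136 bases before it in SPRY2. RefSeq promoter windows, each of 300 bases with 50 of them after the start, were held for 6 members in 10 windows. DUSP4, DUSP5, ETV4 and ETV5 had no entry. On either strand, 3 of the 10 windows held CCGGAA, 1 each in SPRY1, SPRY2 and PHLDA1, against 17.2% of all 35116 windows. The AP-1 motif TGANTCA was in 1 window, of SPRED2, against 7.71% of all windows. The CRE motif TGACGTCA, the E2F motifs TTTCCCGC and TTTGGCGC and the CArG box of serum response factor were in 0 of the 10, against 1.85%, 1.63%, 0.652% and 1.29% of all windows. These are matches of letters only.

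Total counts were between 3317860 and 4013156 per library, so a gene at 0 counts in a library could still be present at 0.736 to 0.904 CPM, the level of 3 counts. CPM is the count of a gene scaled to a common library total. Reads come from the 3′ end of each transcript, so that CPM does not scale with transcript length, and CPM values are scaled by the TMM method. No pair of libraries agreed within sampling noise: the chi-square per degree of freedom was 6.43 and 6.79 for the pairs with abemaciclib replicate 3 and between 2.78 and 3.99 for the other pairs within a group. All 8 luminal markers were detected, among them ESR1, FOXA1 and GATA3, with a summed level of 7437 to 7892 CPM with DMSO and 8479 to 9465 CPM with abemaciclib. These markers did not move together. At an adjusted p under 0.05 in edgeR's test, ESR1 and KRT19 were higher (log2 fold change 0.83 and 0.45). KRT18 was lower (−0.34), and the other 5 were not called. Of the 6 basal or myoepithelial markers, KRT5, KRT14 and TP63 were at 0 counts in all 6 libraries, while KRT17 had 10 counts in all and MYLK 11. Also at 0 throughout were 4 of the 6 fibroblast and mesenchymal markers, VIM among them. The same held for 4 of the 6 leukocyte and endothelial markers, PTPRC among them, while VWF had 11 counts in all and CD68 1. The fibroblast list still summed to 10.3 to 15.7 CPM with DMSO and 10.1 to 15.3 CPM with abemaciclib, nearly all of it COL1A1. The basal list summed to 8.57 to 14.8 CPM with DMSO and 0.982 to 2.69 CPM with abemaciclib, most of it ACTA2, and the part of this difference in the results for the members was not tested. All 5 cell cycle genes used as a check of the labels were lower with abemaciclib, with log2 fold changes from −1.07 for E2F1 to −6.71 for MKI67.

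With abemaciclib, the main ERK phosphatase transcripts of these cells stayed within their spread between libraries, while PHLDA1 fell to less than its lowest DMSO level in all 3 libraries. Of the 10 members, 8 had at least 1 count in any library and 5 had enough counts to be tested. Of these 5, 1 was lower, PHLDA1, and 0 were higher at an adjusted p under 0.05 (edgeR's quasi-likelihood test, abemaciclib against DMSO, Benjamini–Hochberg adjustment over 10863 genes). Among all genes tested, 13.3% were lower and 12.5% higher, or 25.7% in either direction. At an unadjusted p under 0.05, 0 members were higher, and DESeq2 also called 1 lower and 0 higher. For the 5 tested members, the log2 fold changes had a median of −0.028, beside −0.0018 over all genes tested. In the plot of the members by library, the spread of each gene can be set against the gap between the groups.

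**Figure D1:**
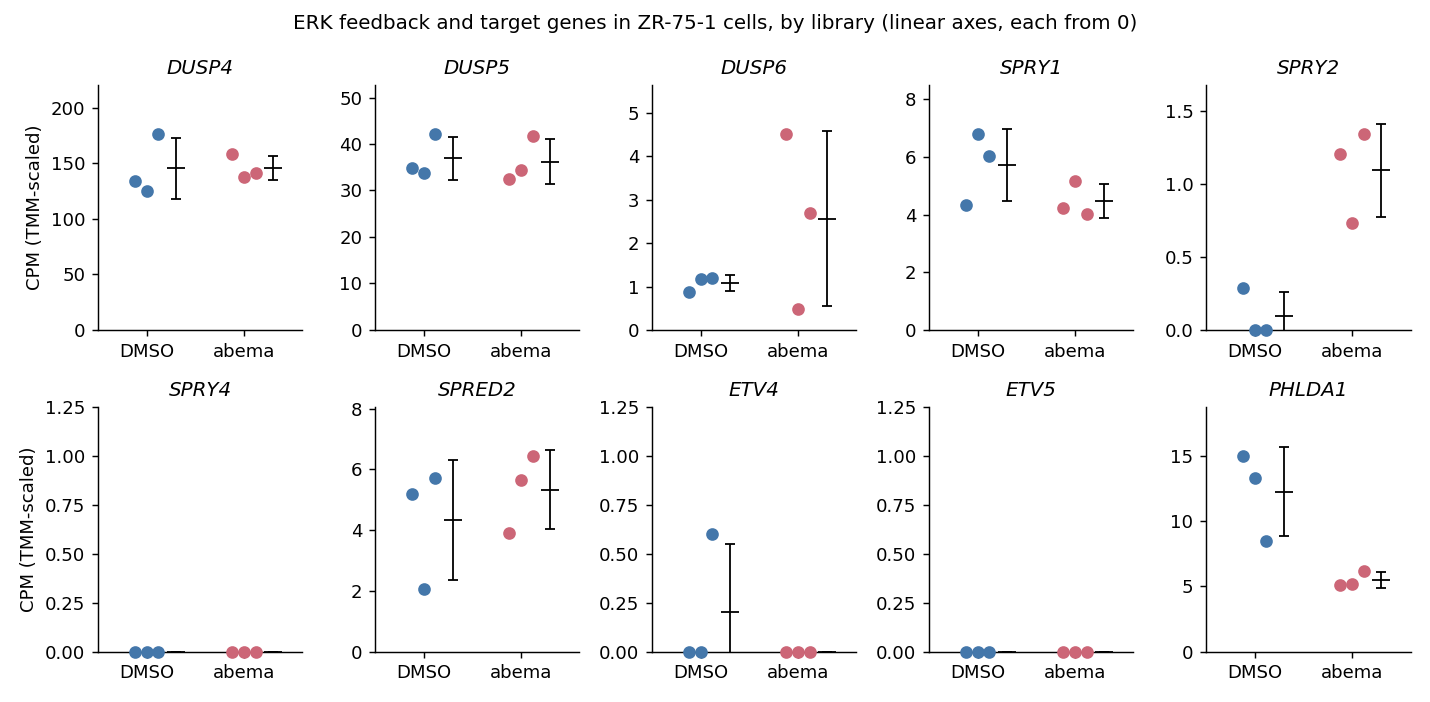
Level of each of the 10 members in CPM (linear axes, each starting at 0, with its own scale) in the 3 DMSO libraries (blue) and the 3 abemaciclib libraries (red), with the mean and SD of each group in black. PHLDA1 lay between 8.43 and 15.0 CPM with DMSO and between 5.12 and 6.18 CPM with abemaciclib, DUSP4 and DUSP5 overlapped, and SPRY4 and ETV5 were at 0 in all 6 libraries.

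The members differed widely in level, and a single phosphatase made up most of their counts. DUSP4 took between 68.8% and 75.5% of the counts of the 10 genes in each library, out of 618 to 799 counts. DMSO libraries had a mean share of 70.3% ± 2.6 and abemaciclib libraries one of 72.6% ± 3.1 (SD over 3 libraries each; exact permutation test, two-sided, p = 0.4, where 0.1 is the smallest p that 3 libraries against 3 allow). In the DMSO libraries, DUSP4 stood above 94.4% of the 20429 genes with at least 1 count, DUSP5 above 79.5% and PHLDA1 above 62.9%. SPRY1 and SPRED2 followed at about the middle of these genes, above 53.9% and 50.9%. Their DMSO ranges overlapped, 4.33 to 6.79 CPM for SPRY1 and 2.07 to 5.72 CPM for SPRED2, so that their order is within the spread. DUSP6 stood above 38.5% of the genes, at 0.865 to 1.20 CPM, under every library of SPRED2. SPRY2, SPRY4, ETV4 and ETV5 each had a DMSO level under the 3-count limit in all 3 libraries.

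DUSP4, on the minus strand of chromosome 8 (GRCh38, 29333064 to 29350684), encodes a nuclear phosphatase that acts on ERK and on JNK. Its level was 134, 126 and 177 CPM in the 3 DMSO libraries and 159, 138 and 141 CPM in the 3 abemaciclib libraries. The groups overlapped, and the highest and the lowest library of the 6 were both from DMSO. The means were 145 ± 27.3 CPM and 146 ± 11.1 CPM (SD, n = 3 in each group). In edgeR's test the log2 fold change came to 0.0037 (standard error 0.12, adjusted p = 0.988), with a 95% interval from −0.25 to 0.25, which spans 0.843 to 1.19 times the DMSO level. Without DMSO replicate 3, the library with the highest level, the log2 fold change was 0.17, and this was the farthest from 0 among the fits that each left out 1 library.

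DUSP5 encodes a nuclear phosphatase specific for ERK and lies on chromosome 10 (110497907 to 110511533, plus strand). It was at 34.9, 33.7 and 42.2 CPM with DMSO and at 32.5, 34.4 and 41.7 CPM with abemaciclib, so the groups covered nearly the same range. The log2 fold change by edgeR came to −0.028 (standard error 0.17, adjusted p = 0.935), with a 95% interval of 0.765 to 1.26 times the DMSO level. Its annotated pseudogenes DUSP5P1 and DUSP5P2 were at 0 counts throughout. Of the counts of the 3 phosphatases, DUSP4 made up 79.2% ± 1.0 in control cells and 79.0% ± 2.6 in treated cells (SD over 3 libraries each; exact permutation test, two-sided, p = 0.9). Summed, DUSP4, DUSP5 and DUSP6 came to 160 to 220 CPM with DMSO and 173 to 196 CPM with abemaciclib.

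DUSP6, the cytoplasmic ERK phosphatase often used as a readout of the cascade, lies on chromosome 12 (89347235 to 89352501, minus strand) and had only 38 counts in the 6 libraries together. There were 3, 4 and 4 counts with DMSO and 15, 2 and 10 with abemaciclib. The abemaciclib libraries held both the highest count and the lowest. The ratio of the summed counts, corrected for library totals, was 2.22, with an exact 95% interval from 1.07 to 4.97 that covers counting error only and not the spread between libraries. With no filter on low counts, the edgeR log2 fold change was 1.20 with a standard error of 0.85 and an adjusted p of 0.448 (0.442 with DESeq2). The last exon of DUSP6 overlaps ENSG00000274021 on the opposite strand, which had 0 counts, and reads of the pair cannot be told apart if the counting did not use strand. A difference in DUSP6 beyond the spread between libraries was not detectable at this depth.

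Sprouty proteins hold back receptor signalling to RAS and RAF, and SPRED2 binds neurofibromin, the RAS GTPase-activating protein. SPRY1 (chromosome 4, 123396795 to 123403760, plus strand) was at 4.33, 6.79 and 6.02 CPM with DMSO and at 4.21, 5.15 and 4.03 CPM with abemaciclib. The groups overlapped, and edgeR put the log2 fold change at −0.35 (standard error 0.43, adjusted p = 0.616), with a 95% interval of 0.424 to 1.45 times the DMSO level. SPRED2 (chromosome 2, 65310851 to 65432637, minus strand) was at 5.19, 2.07 and 5.72 CPM with DMSO and at 3.91, 5.64 and 6.45 CPM with abemaciclib. Here edgeR put the change at 0.31 on the log2 scale (standard error 0.47, adjusted p = 0.691), with a 95% interval of 0.637 to 2.40 times the DMSO level, and it became −0.028 without DMSO replicate 2, the lowest library. For both genes, changes of up to the ends of these intervals could not be told from none.

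SPRY2 (chromosome 13, 80335976 to 80341126, minus strand) had the lowest counts of the members that were seen in both groups. There were 1, 0 and 0 counts with DMSO and 4, 3 and 5 counts with abemaciclib, so that the groups did not overlap, and the same order, with the abemaciclib libraries higher, was found for 11.7% of the 20429 genes with counts. The ratio of summed counts was 10.9, with an exact 95% interval from 1.61 to 465 for counting error only. Over the 6 libraries the exact two-sided permutation test gave p = 0.1, the smallest that 3 against 3 libraries allow. SPRY2 had too few counts to be tested, and with no filter its adjusted p was 0.297 (edgeR), so no change was called. SPRY4 (chromosome 5, 142310427 to 142326455, minus strand) had 0 counts in all 6 libraries, which over the 6 together allows a level of up to 0.141 CPM.

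The ETS factors were at or near 0. ETV5 (chromosome 3, 186046314 to 186110318, minus strand) had 0 counts in all 6 libraries, a limit of 0.141 CPM over the libraries together. ETV4 (chromosome 17, 43527844 to 43579620, minus strand) had 2 counts, both in DMSO replicate 3. No comparison between the groups could be made for either. In all, 66.3% of the genes in the count table had 0 counts in the 6 libraries.

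PHLDA1 encodes a pleckstrin homology-like protein whose transcript follows ERK activity in many cells, and it was the member that changed. The gene lies on chromosome 12 (76025447 to 76031776, minus strand). Its level was 15.0, 13.3 and 8.43 CPM with DMSO and 5.12, 5.15 and 6.18 CPM with abemaciclib, from 52, 45 and 28 counts against 17, 21 and 23. Every abemaciclib library lay below every DMSO library, as for 20% of all genes tested, and the DMSO libraries spread more widely than the abemaciclib libraries. The means were 12.2 ± 3.41 CPM and 5.49 ± 0.606 CPM (SD, n = 3 in each group), a level 2.23 times higher with DMSO. By edgeR the log2 fold change came to −1.16 (standard error 0.35, adjusted p = 0.0140), with a 95% interval from −1.87 to −0.44. In these bulk libraries, fewer cells with PHLDA1 and less PHLDA1 RNA per cell cannot be told apart. The call was lost without either of the higher DMSO libraries: without DMSO replicate 1 the log2 fold change was −0.99 (adjusted p = 0.0896), and without DMSO replicate 2 it was −1.10 (adjusted p = 0.0612). The call was kept in the 4 other fits that left out a library, and with DESeq2 (adjusted p = 0.0392).

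The nearest relatives of the members included other MAP kinase phosphatases that were higher with abemaciclib. Of 13 relatives (other MAP kinase phosphatases, SPRY3, SPRED1, SPRED3, ETV1 and the other PHLDA genes), 10 could be tested, of which 3 rose and 1 fell. Among all genes tested, 12.5% were higher and 13.3% lower. The phosphatases DUSP7, DUSP9, DUSP10 and DUSP16 were not called. Their log2 fold changes were −0.23, −1.41, 1.07 and 0.20 (edgeR, adjusted p = 0.709, 0.0677, 0.0552 and 0.511). DUSP2, a nuclear phosphatase, rose by 1.31 on the log2 scale (standard error 0.27, adjusted p = 0.000492 from edgeR) from 8.78 to 21.7 CPM. DUSP1, an immediate early phosphatase of the p38, JNK and ERK kinases, rose by 0.98 (standard error 0.24, adjusted p = 0.00327), and both genes were higher in each abemaciclib library than in any DMSO library, as were 19.1% of all genes tested. DUSP8, which acts on JNK and p38, rose by 0.51 (adjusted p = 0.0237), a call lost without DMSO replicate 1 or 3 or abemaciclib replicate 1 or 2 (adjusted p from 0.0631 to 0.172). PHLDA3, a p53-responsive gene, also fell, its log2 change being −0.69 (adjusted p = 2.21e-05). Within the PHLDA genes, PHLDA1 was 2.40% to 4.57% of the summed counts of PHLDA1, PHLDA2 and PHLDA3 with DMSO and 1.49% to 2.30% with abemaciclib (exact permutation test, two-sided, p = 0.1). Whether DUSP1 or DUSP2 differed from DUSP4 in their response was not tested. ETV1, the third PEA3 factor, had 14, 4 and 4 counts with DMSO and 0 in each abemaciclib library, too few for the test. Among the genes with at least 1 count, 13.1% had every abemaciclib library below every DMSO library.

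**Figure D2:**
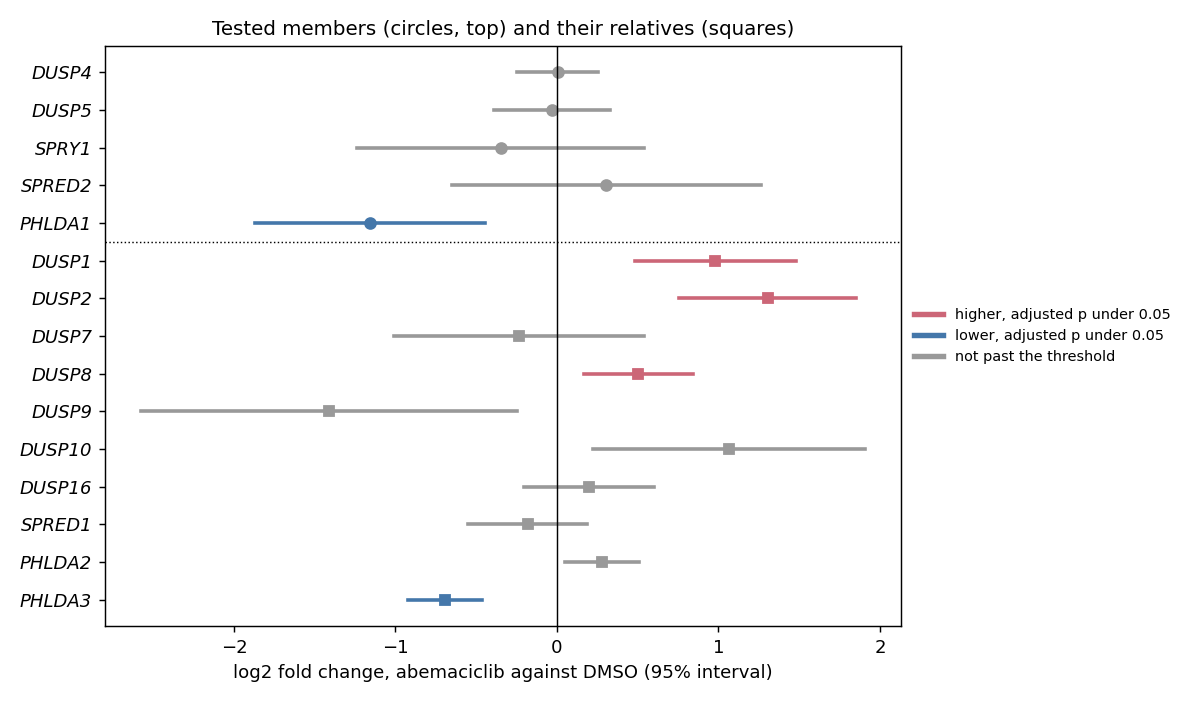
Log2 fold change of abemaciclib against DMSO with its 95% interval for the 5 members tested (circles, above the dotted line) and the 10 relatives tested (squares), coloured where the adjusted p was under 0.05. The interval of DUSP4 runs from −0.25 to 0.25, PHLDA1 lies below 0, and DUSP1 and DUSP2 lie above it.

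Along the cascade that controls the members and among the genes around it, calls went both ways. The 8 lists, which include the relatives, other outputs and other ETS factors, hold 117 other pathway genes. Of these, 85 could be tested, and 18 rose and 12 fell, or 35.3% against the 25.7% of all genes tested. Without DMSO replicate 3, 7 were lower and 17 higher. The lists were chosen with earlier results of these data known, and the difference in share was not tested. Of 14 ligands, 3 were tested, and 0 were called in either direction (edgeR, 1 higher and 1 lower at an unadjusted p under 0.05, and 0 with DESeq2). Of 9 receptors tested, RET, the receptor of GDNF-family ligands, went up by 1.70 (log2 fold change, adjusted p = 0.000392), and FGFR4 and FGFR1 fell by 0.81 and 0.56 (adjusted p = 0.000105 and 0.0142, the latter 0.0903 without DMSO replicate 3). Of the 22 adaptors, RAS, RAF, MEK and ERK genes that could be tested, 3 rose and 4 fell. MAPK3, which encodes ERK1, fell by 0.59 (adjusted p = 8.99e-05). PEBP1, which holds back the cascade, rose by 0.64 (adjusted p = 3.05e-06), FRS2, the adaptor of FGF receptors, by 0.53 and LAMTOR3, a MEK scaffold, by 0.84. MRAS and HRAS had log2 fold changes of −1.42 and −0.73, and their calls (adjusted p = 0.0489 and 0.0480) were unstable. MRAS kept its call only without abemaciclib replicate 2 among the 6 fits that left out a library (adjusted p of up to 0.212 in the others), and HRAS lost its call without DMSO replicate 2 or 3 or abemaciclib replicate 2 or 3 (up to 0.201).

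The brakes of the cascade outside the members were likewise split, while more of its other tested outputs were called higher than lower. Of 13 genes that restrain RAS signalling, 3 were higher, LZTR1, CBL and PEA15, and 2 lower, RASA2 and RASAL2. The calls of LZTR1 (without DMSO replicate 2 or abemaciclib replicate 1), CBL (without DMSO replicate 2 or 3 or abemaciclib replicate 2), RASA2 (without DMSO replicate 3) and RASAL2 (without abemaciclib replicate 1) were lost at adjusted p of 0.0671 to 0.114. Of 7 kinases that ERK activates, MKNK2 was higher, by 0.54 on the log2 scale (adjusted p = 0.000217). Among 12 other ERK-responsive genes tested, 5 were higher and 1 lower. EGR3 rose by 1.74 (edgeR, adjusted p = 1.46e-08), CCN1 by 1.08 and CCND1, which encodes cyclin D1, by 1.34 (adjusted p = 2.85e-13). FOS rose by 0.77 and IER3 by 0.60 (adjusted p = 0.000853 and 0.000182). VGF fell by 0.96, a call lost without abemaciclib replicate 3 (adjusted p = 0.0506). The study reports CCND1 as an oestrogen-responsive gene that Rb induces from nearby enhancers. The part of ERK in these changes was not tested. The last exons of EGR3, CCND1, CBL, HRAS, RASAL2 and IER3 overlap genes on the opposite strand, so their counts are uncertain. Over the 6 libraries, the overlapping gene had 77 counts for EGR3, 365 for CCND1, 10 for CBL and 0 for RASAL2. Those of IER3 had 1 and 3 counts, and that of HRAS was not in the count table. The last exons of ELF3, LZTR1 and PHLDA3 overlap a gene on the same strand, with 2, 0 and 0 counts. Among 9 other ETS factors tested, the epithelial factor EHF rose by 0.77 and ELF1 by 0.52, whereas ELF3 fell by 0.56 and SPDEF by 0.37 (SPDEF lost its call without DMSO replicate 3 or abemaciclib replicate 2, adjusted p = 0.0692 and 0.0507).

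**Figure D3:**
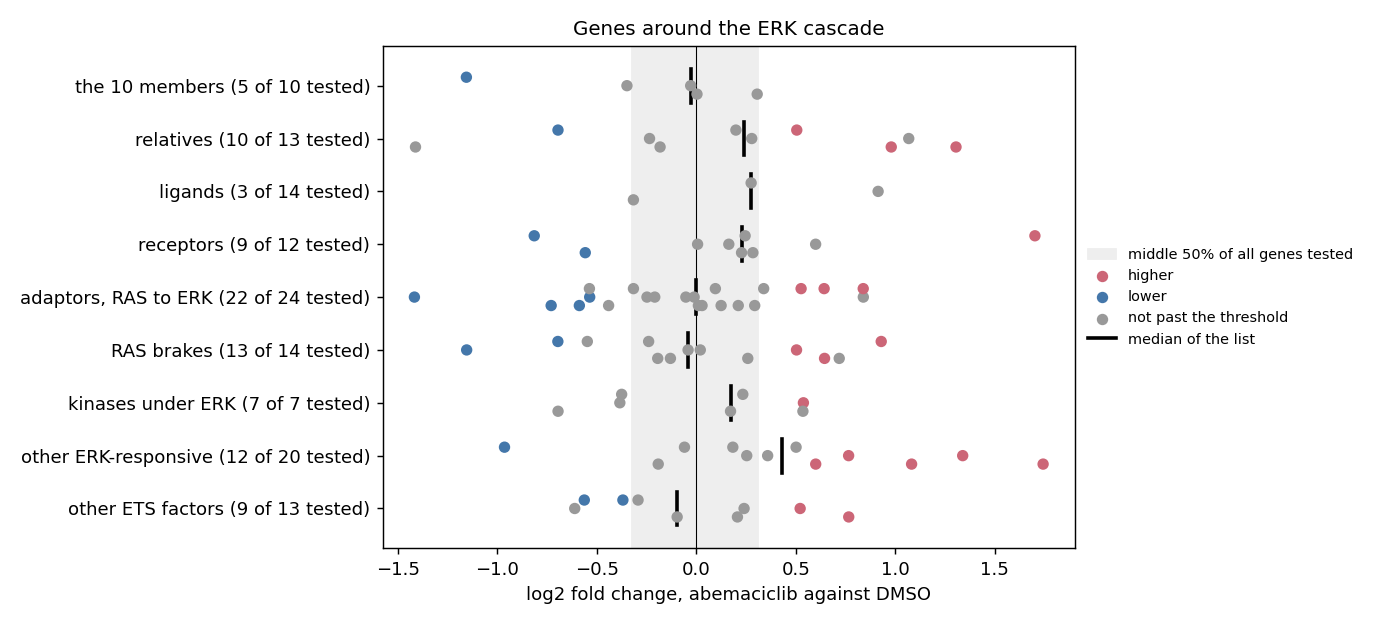
Log2 fold change of abemaciclib against DMSO (x axis) for each tested gene of the 10 members and of 8 lists of other pathway genes (rows), red or blue where higher or lower at an adjusted p under 0.05, with the median of each list as a black bar and the middle 50% of all genes tested shaded (−0.32 to 0.31). The members' median is −0.03 with 1 of 5 called, and the median of the other ERK-responsive genes is 0.43 with 6 of 12 called.

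The genes whose levels followed DUSP4, the member with the highest mean level, most closely over the 6 libraries were CTU2, INTS11, SH3GL1, ENSG00000258500 and SCYL3, with Pearson r of log2 CPM from 0.951 to 0.990 among 8119 genes with a mean of at least 10 CPM. These 6 points share their libraries and depth. None of the 5 differed between the groups in edgeR's test (adjusted p of 0.835 to 0.994). Their choice largely fixed this result, because DUSP4 itself hardly differed between the groups. The likeness lies in the differences between libraries of a group.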

How the data were processed

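RNA was measured in 3 DMSO and 3 abemaciclib libraries of parental ZR-75-1 cells, grouped by the treatment label. The authors trimmed single-end 3′ mRNA reads (BBDuk), mapped them to hg38 (STAR 2.7.5b) and summed them over GENCODE genes (featureCounts 2.0.1). What was deposited is the table of raw counts per gene, with no normalization, no filter and no molecular identifiers, so limits given for low counts cover counting error only. Whether the counting used strand is not given in the sources used here. Symbols were matched by Ensembl identifier (255 of 60656 had none), and coordinates come from GENCODE v44, a newer release than the authors' own, on GRCh38.

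In R 4.3.3, edgeR 4.0.16 compared abemaciclib with DMSO on the counts (filterByExpr, TMM, glmQLFit and glmQLFTest, no covariate, Benjamini–Hochberg over all genes tested, threshold 0.05). The standard error is the log2 fold change divided by the square root of F, and the 95% interval uses the degrees of freedom of that test. CPM was computed from all genes. Total counts of 3317860 to 4013156 and a biological coefficient of variation of 13.2% set the precision. The script was tested on simulated data. The members and lists were chosen with earlier results of these data known. Named genes were the 10 members and, in each of 8 lists, up to 3 per direction with the largest change past the threshold. ETV1, DUSP7, DUSP9, DUSP10, DUSP16, EPHA4, FOSL1, FOS and IER3 were named after their values were seen. So were the markers ACTA2, COL1A1, KRT17, MYLK, VWF and CD68. The changes of ESR1, KRT18 and KRT19 were also given after their values were seen. FOS and IER3 are not among the named genes followed under the alternatives. Alternatives were DESeq2 1.42.0, its size factors, total counts, other filters, another prior count, a replicate block and each library left out.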

Additional observations from a re-analysis of the deposited data

How the results depend on the processing

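Across the alternatives run, PHLDA1 was the 1 member lower and 0 were higher, except that leaving out 1 library gave 0 to 1 lower, and its log2 fold change was between −1.36 and −0.99 in those fits. The sign of DUSP4 was not fixed: it was −0.011 with total counts as the only scaling, −0.0037 with at least 10 counts in every library, and −0.093 to 0.17 with 1 library left out. DUSP5 ranged from −0.14 to 0.077 and SPRED2 from −0.028 to 0.55 in the same fits, and none of these 3 was called in any fit (SPRED2 had too few counts for the fit with at least 10 counts in every library). Leaving out 1 library gave 16 to 24 pathway genes higher and 7 to 12 lower. Of 350 values of the 27 named pathway genes under an alternative, 318 kept their call and 32 lost it, and 0 changed sign. The replicate numbers do not pair the libraries: deviations from the group means correlated at −0.09 to 0.0070 for libraries of the same number and at −0.06 to 0.10 for others. With the replicate block, PHLDA1 stayed called (log2 fold change −1.13, adjusted p = 0.0312), 1139 genes were higher and 1280 lower in place of 1354 and 1442, and 2 of the 27 named pathway genes lost their call. DESeq2 gave 1069 higher and 1166 lower, and 4 of the 27 named pathway genes lost their call with it. Depth limits SPRY2, SPRY4, DUSP6, ETV4 and ETV5, whose 38 counts or fewer over 6 libraries left them untested.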

Other observations

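Of the 20 other ERK-responsive genes, 8 were not tested, and they are given here after their values were seen. EPHA4, an ephrin receptor, had 5, 15 and 20 counts with DMSO and 3, 0 and 1 with abemaciclib. FOSL1, which encodes an AP-1 subunit, had 3, 4 and 10 counts with DMSO and 0 in each abemaciclib library. In both, every abemaciclib library lay below every DMSO library, as for 13.1% of all genes with at least 1 count. The libraries of the other 6 overlapped. EPHA2 had 18 counts with DMSO and 17 with abemaciclib, UPP1 had 6 and 6, and LIF had 4 and 3. CD274, which encodes PD-L1, had 0 counts with DMSO and 2, 5 and 0 with abemaciclib, TNC had 1 count in all, and PLAU had 0.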
